A study of Mus musculus with 10 samples.

Results

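GLIS3 sites that also carried tags in the WT GFP ChIP are described here. The authors' list for the thyroid glands of Glis3-EGFP mice holds 18513 sites, and 930 of them had 3 or more tags in the GFP ChIP of WT thyroid glands, which carry no GFP. These control tags are not a column of the list. They were recovered from each site's tags, its fold and the library totals, as a whole number within 2%, at 17804 sites. The 930 sites were thus chosen by their control tags, and the fold and the p-value of the authors' caller are made from the same tags, so all 3 are given as a description with no test. The Glis3-EGFP group consisted of mice expressing a GLIS3-EGFP fusion protein and the control group of wild type mice, both on a C57BL/6 background and both fed a low-iodine diet for 2 weeks. Each group had 1 ChIP library from thyroid gland. With 1 library per group there is no spread between animals, and intervals cover counting error only. The sources used here do not say how many animals were pooled.

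GLIS3 is a Krüppel-like zinc finger transcription factor that follicular cells of the thyroid need for the synthesis of thyroid hormone. A low-iodine diet raises thyroid stimulating hormone and with it the demand on these cells. In a GFP ChIP, the GFP-binding peptide on the agarose pulls down the DNA that the fusion protein holds. The same precipitation from tissue without GFP can recover only DNA that sticks without it, from any part of the genome. Such a control is commonly higher in open chromatin and where a sequence has more copies in the genome than in the assembly, which is background and was not measured here. Sites were called against this control by SISSRs, and each listed site has at least 9 tags in the Glis3-EGFP library and a fold of at least 2. The fold is the number of tags over the control tags, scaled to the totals of 4516562 and 5171171 tags. A site with 0 control tags counts as having 1.

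Most of the 930 sites had only a few control tags. There were 708 sites with 3 control tags (76.1%), 161 with 4 and 47 with 5, so that 916 sites (98.5%) had 3 to 5. The other 14 sites had 6 to 19. Just outside the limit lay 2345 sites with 2 control tags, and 14529 sites had 0 or 1. The control library held 2.43 tags per kb of the effective genome that the file header states, or 0.993 tags per 408 bp, which is the length of a pair of fragments. The sources used here do not give the stretch over which the caller counted control tags at a site. In a Poisson distribution the ratio of each class to the class below, multiplied by the number of tags in the class, equals the mean in every class. Here this product was 0.906 at 3 control tags, 0.910 at 4, 1.46 at 5 and 0.511 at 6, where the last rests on 4 sites. From 6 control tags up, a site with 9 tags would have a fold under 2, and 2 is the lowest fold in the list. These classes thus lack sites with 9 tags, and the fewest Glis3-EGFP tags at 6 control tags were 11. Between 8 and 12 control tags there were 9 sites, and 1 site had an uncertain count of 19. Whether an even background gives these numbers was not tested.

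**Figure D1:**
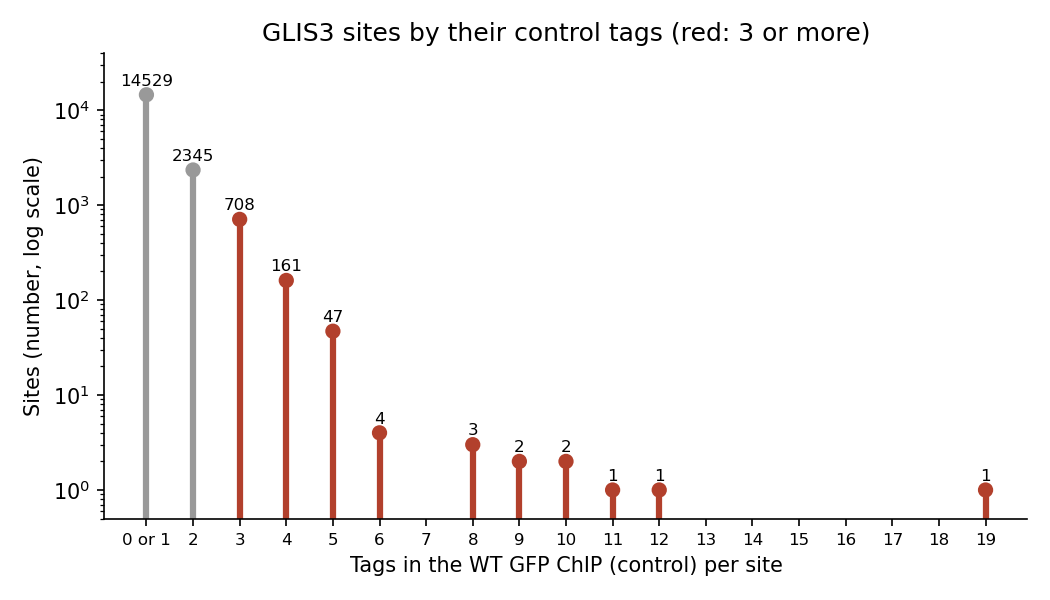
Number of GLIS3 sites (log scale) by the number of tags at the site in the WT GFP ChIP, for the 17804 sites where it was recovered. The counts fall from 2345 sites with 2 control tags to 708 with 3, 161 with 4 and 47 with 5 (red from 3 up), and 10 sites lie between 8 and 19.

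In the Glis3-EGFP library the 930 sites were about as strong as the rest. Their median was 12 tags, with quartiles of 10 and 18 and a range of 9 to 134. Sites with 2 control tags had a median of 12 and a range of 9 to 140, and those with 0 or 1 a median of 13 and a range of 9 to 178. At the upper end, 28 of the 930 (3.01%) had more than 50 tags, where 2.93% of the whole list did. At the lower end, 207 (22.3%) had the minimum of 9 tags, where 17.1% of the list did. Over the 930 sites, the rank correlation of Glis3-EGFP tags with control tags was 0.0068 (Spearman's rho across sites, which share their libraries). Over all 17804 sites it was -0.028. The list has no fold under 2 and so lacks sites with many control tags and few Glis3-EGFP tags. This limit does not act up to 5 control tags, where 9 tags already give a fold of 2.06. Most sites are tied in control tags, 708 of the 930 at 3 and 14529 of all 17804 at 0 or 1. With so many ties, either correlation says little about a relation.

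Since the fold divides by the control tags, it was lower by construction. The median fold of the 930 sites was 4.2, with quartiles of 3.43 and 6.3 and a range of 2 to 51.14, against a median of 6.87 at sites with 2 control tags and 14.88 at those with 0 or 1. A fold of at least 4 was reached by 518 of the 930 (55.7%), where 97.7% of the whole list reached it. A fold of at least 10 was reached by 113 (12.2%), where 86.0% of the list did. Of the 108 sites in the list with a fold under 3 (0.583% of all sites), 104 were among the 930 and the other 4 had no recovered control tags. A fold under 3 needs 4 or more control tags at a site of 9 tags, so this is fixed by the limit. All 104 had the highest p-value in the list, 0.016. The median p-value was 0.0044 at the 930 sites and 0.00058 in the whole list.

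Of the 28 sites with more than 50 tags, 24 had 3 control tags, 3 had 4 and 1 had 6, where 76.1% of all 930 had 3. Their folds ran from 10.3 to 51.14, with a median of 23.28. They lay on 12 chromosomes, 22 of them were 40 bp wide, which is the narrowest width in the list, and 4 were more than 10 kb from any other site.

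The site with the most tags lay on chromosome 4 of mm9 from 130138671 to 130138711. It held 134 tags in the Glis3-EGFP library (95% Poisson interval 112 to 159) and 3 in the control (0.619 to 8.77). Its fold was 51.14, with an interval of 17.1 to 251, and its p-value of 2.1e-05 was the lowest of the 930. The interval (exact binomial, scaled by the totals) takes no account of the choice of this site or of the selection by the caller.

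A site on chromosome 18, from 35836171 to 35836211, came second with 118 tags against 3. On chromosome 7, the site from 29381891 to 29381931 held 102 tags against 3, and it stood in a run of 12 listed sites. On chromosome 13, the site from 95310851 to 95310891 held 100 tags against 3. Their folds were 45.03, 38.93 and 38.16.

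A further pair of strong sites lay close together on chromosome 4. The site from 150082051 to 150082091 held 93 tags against 3 control tags. The other, from 150083751 to 150083811, held 47 tags against 5, a fold of 10.76. The pair spans 1760 bp and together held 140 tags. On chromosome 3, by contrast, the site from 151118371 to 151118411 held 79 tags against 3, and its nearest listed neighbour was 611080 bp away. Strong sites with control tags were thus found both in groups and alone.

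Among the 10 sites with the most Glis3-EGFP tags, 2 had more than 3 control tags. Over all 930, 222 did. The first, on chromosome 18 from 61944951 to 61945011, held 77 tags against 4. The other, on chromosome 7 from 106280631 to 106280671, held 75 tags against 4. A site of chromosome 15 (68098391 to 68098431, with 75 tags) and a site of chromosome 5 (13959771 to 13959811, with 72 tags) completed the 10, each with 3 control tags.

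The sites with the most control tags lay in few places. Of the 14 sites with 6 or more, 9 lay in a block at the start of chromosome 11 and 2 in a short run on chromosome 17. The other 3 lay on chromosomes 1, 5 and Y.

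The block on chromosome 11 runs from the first listed site of that chromosome, at 3028471, to 3102511, with no gap over 15 kb. It spans 74.04 kb and holds 24 listed sites, of which 18 had 3 or more control tags, 1 had 2 and 2 had 0 or 1. At the remaining 3 the control tags could not be recovered. The control tags of the 18 sites ran from 3 to 12 with a median of 5.5, and their Glis3-EGFP tags from 9 to 24 with a median of 13.5. In 12 of the 18 the fold was under 3.

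The highest control count of the block was 12 tags, at the site from 3044291 to 3044351, with 24 Glis3-EGFP tags and a fold of 2.29 (interval 1.10 to 5.03). The site from 3053971 to 3054271 held 19 tags against 10 and a fold of 2.18 (0.962 to 5.24). The site from 3061211 to 3061531 held 22 tags against 9, and its neighbour 180 bp away, from 3061711 to 3061911, held 14 against 8 with a fold of 2, the lowest in the list. Not every site of the block had a high control.

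At the far end of the block, the site from 3102451 to 3102511 held 21 tags against 0 or 1, a fold of 24.04. Near its start, the site from 3031431 to 3031531 held 9 tags against 0 or 1, and its neighbour 340 bp away, from 3031871 to 3032111, held 10 tags at a fold of 2.58, with no recovered control tags. In the second stretch of the block, from 3087451 to 3098971, all 5 listed sites had 3 or more control tags, with 3, 4, 3, 3 and 6 control tags in order and folds of 2.48 to 5.72.

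**Figure D2:**
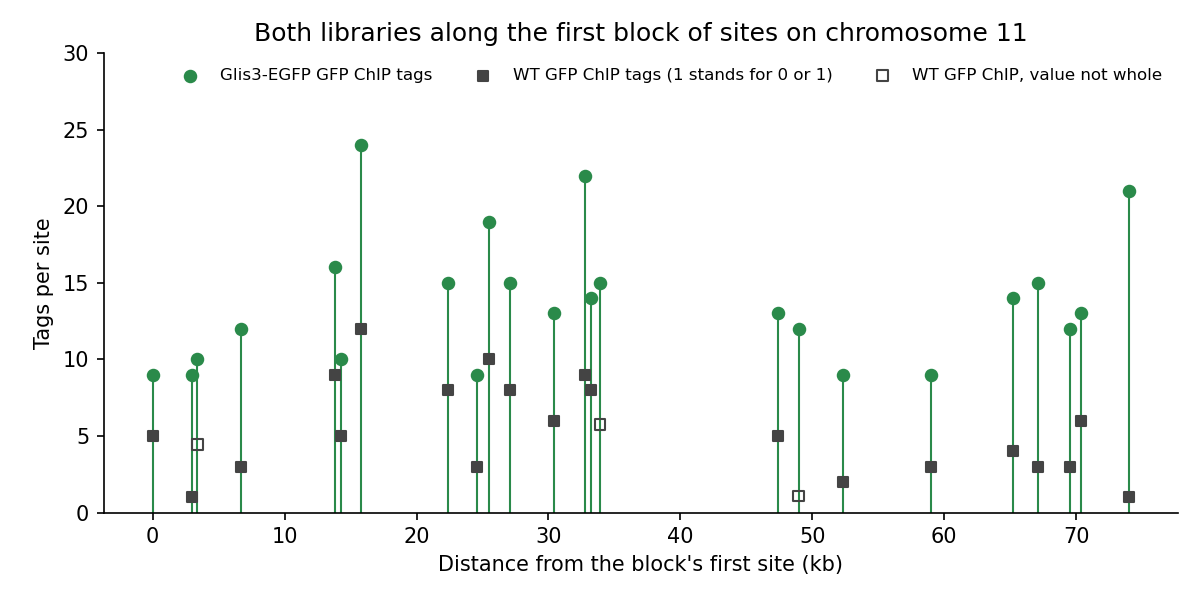
Tags per site in the Glis3-EGFP GFP ChIP (green) and in the WT GFP ChIP (squares, open where the value was not whole) along the block of 24 sites on chromosome 11, by distance from its first site in kb. Control tags reach 8 to 12 at 7 sites in the first 34 kb, while the last site, with 21 Glis3-EGFP tags, has 0 or 1.

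The run on chromosome 17 had the highest control count of the list. It held 4 sites within 5.48 kb, from 39980171 to 39985651. The site from 39981451 to 39981791 held 40 tags in the Glis3-EGFP library and 19 in the control, a fold of 2.45 (interval 1.36 to 4.41). At such a count a tolerance of 2% takes in most values. The value before rounding was 18.7, further from a whole number than the rounding of the fold allows. So 40 tags and 19 control tags do not give the deposited fold, and the 19 and its interval are uncertain. The site from 39985611 to 39985651 held 36 tags against 11, a fold of 3.75 (1.87 to 8.16). Both lie in the upper part of the list by tags and in its lowest part by fold. Between them, the site from 39984491 to 39984551 held 14 tags against 2, a fold of 8.01. The first site of the run, 740 bp wide, held 45 tags at a fold of 3.53, which gives 14.6 control tags, not a whole number, and it is not among the 930.

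The remaining sites with 6 or more control tags differed from each other. The site on chromosome 1 from 54883671 to 54883731 held 54 tags against 6, a fold of 10.3 (interval 4.44 to 29.3), the highest fold of the 14. The site on chromosome 5 from 147072811 to 147072891 held 11 tags against 6, a fold of 2.1 (0.712 to 6.91). It lay 160 bp from another of the 930 sites, with 21 tags against 5. The Y chromosome had 1 listed site, from 2789651 to 2789871, with 19 tags against 10 and a fold of 2.16 (0.962 to 5.24). The site of the chromosome 11 block with 19 tags against 10 had a fold of 2.18. On the Y chromosome the value before rounding was 10.07, so its 10 and the interval made from it are uncertain. A pair of sites on chromosome 10, from 79896531 to 79898591, had 9 control tags between them and 25 Glis3-EGFP tags, with folds of 3.15 and 3.21. Among the 14 sites with 6 or more control tags, the site on chromosome 1 alone combined many control tags with a high fold.

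Position in the genome was not used to choose the sites, but sites of 1 library are not replicates, so shares are set side by side with no test. The 930 sites lay on 21 of the 22 chromosomes of the list, the exception being the mitochondrial chromosome with its single site. Of the sites with recovered control tags, 6.31% had 3 or more on chromosome 3 (48 of 761, exact 95% interval 4.69 to 8.28), the highest share of an autosome, and 3.74% on chromosome 10 (31 of 828, 2.56 to 5.27), the lowest. The intervals of these overlap. Chromosome 11 had the most such sites, 82 of 1429 (5.74%, 4.59 to 7.07). Without the block it had 4.55%. On the X chromosome 5 of 174 had 3 or more (2.87%, 0.939 to 6.58). All 5 had 3 control tags and 9 to 35 Glis3-EGFP tags, and each was more than 10 kb from any other listed site.

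**Figure D3:**
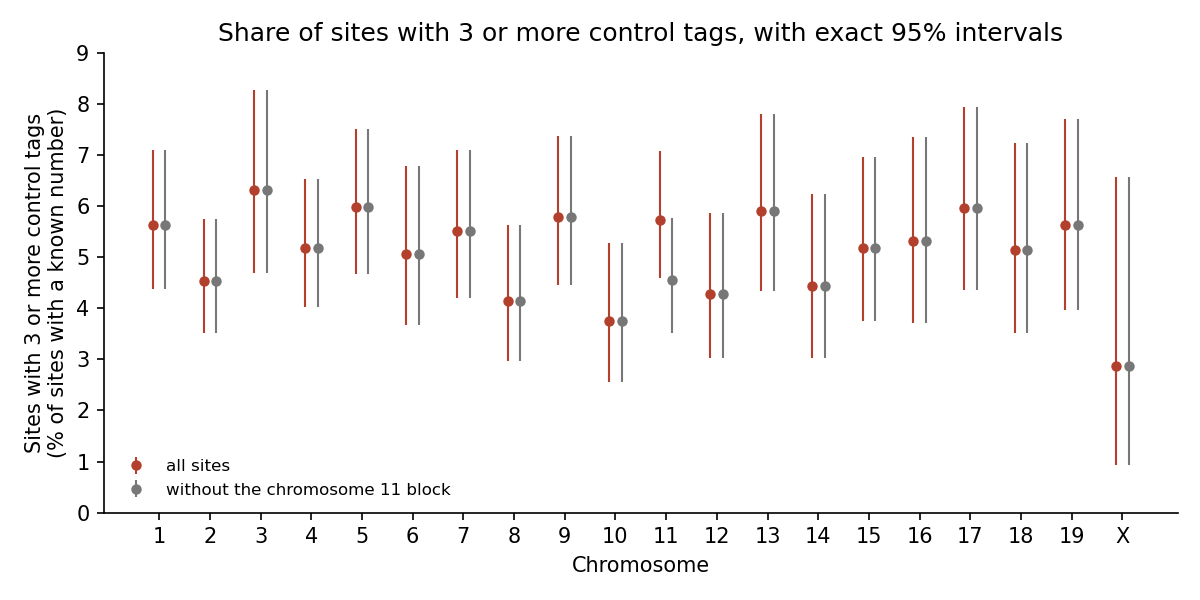
Share of sites with 3 or more control tags among sites with a recovered number (%), for each autosome and the X chromosome, with exact 95% intervals, for all sites (red) and without the block on chromosome 11 (grey). The autosomes lie between 3.74% and 6.31% with overlapping intervals, and leaving out the block moves chromosome 11 from 5.74% to 4.55%.

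Near the start of a chromosome, within 1 Mb of its first listed site, lay 32 of the 930 sites (3.44%, interval 2.37 to 4.82) against 1.19% of sites with fewer than 3 control tags. Of these 32, 18 were in the block on chromosome 11. The single listed sites of the Y and mitochondrial chromosomes are their own first sites and so count by definition. The Y site is among the 32 and the mitochondrial site among those with fewer than 3 control tags. Without the block the share was 1.54% (0.842 to 2.56) against 1.17%. Most of the sites near a chromosome start were thus in 1 place. Without it the interval takes in the share of the sites with fewer than 3 control tags, and higher shares too. Whether a smaller difference is left was not tested.

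Sites with 3 or more control tags had a listed neighbour within 1 kb, measured between the edges of sites, in 304 of 930 cases (32.7%, interval 29.7 to 35.8). Sites with 2 control tags did in 28.0% (26.2 to 29.8) and those with 0 or 1 in 26.6% (25.9 to 27.4). By number of control tags the share was 30.9% at 3, 33.5% at 4 and 48.9% at 5 (23 of 47, 34.1 to 63.9). Without the block it was 30.9% at 3, 33.8% at 4 and 22 of 44 sites at 5, and among sites at most 60 bp wide, with wider sites still counted as neighbours, 30.9%, 35.7% and 53.1%. With the wider sites left out as neighbours too, a choice made after seeing the data, the shares fell to 20.2% at 3, 17.4% at 4 and 31.2% at 5 (10 of 32, 16.1 to 50.01), against 18.4% at 2 and 17.1% at 0 or 1. The order by control tags was then not kept, and the intervals at 3 to 5 control tags overlap with that at 2. Neighbouring sites are not independent, so these intervals are too narrow. Within 10 kb the shares were closer, 59.1% (55.9 to 62.3) against 56.6% at 2 control tags and 55.1% at 0 or 1.

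**Figure D4:**
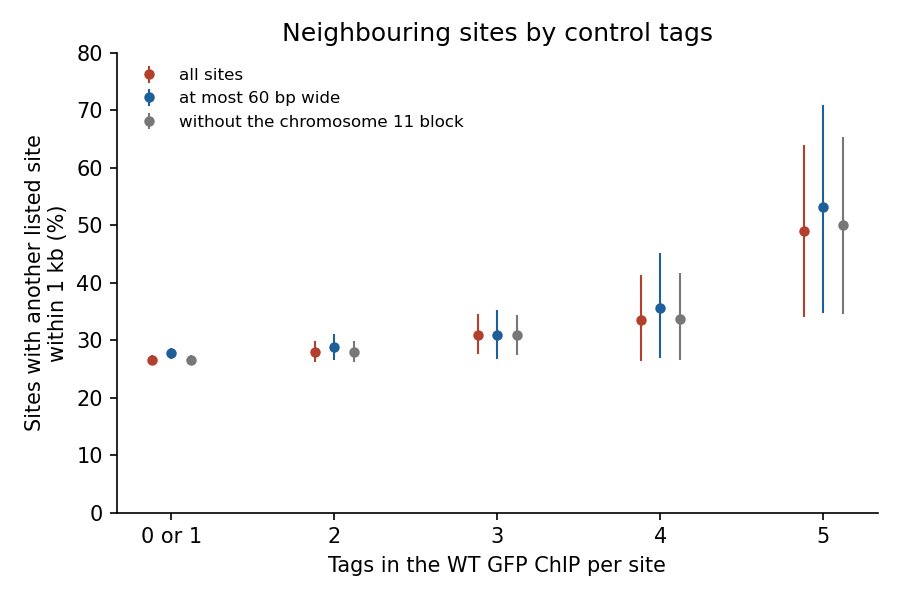
Share of sites (%) with another listed site within 1 kb, by the number of tags at the site in the WT GFP ChIP, with exact 95% intervals, for all sites (red), sites at most 60 bp wide (blue, with wider sites still counted as neighbours) and without the block on chromosome 11 (grey). The share goes from 26.6% at 0 or 1 control tag to 48.9% at 5, where it rests on 47 sites.

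With gaps of at most 10 kb, 855 of the 930 sites stood without another site of 3 or more control tags, 58 formed 29 pairs on 15 chromosomes, and the rest lay in runs of 5 and 12, both in the block on chromosome 11. The paired sites had a median of 3 control tags. Where the nearest listed site was up to 408 bp away, it had 3 or more control tags at 6.07% of the 930 sites in question (13 of 214, interval 3.27 to 10.2), 7.22% of sites with 2 control tags and 6.23% of those with 0 or 1. Without the block the first of these was 4.29% (1.98 to 7.98). From there to 1 kb it was 12.8% of the 930 sites in question (10 of 78, 6.32 to 22.3), 6.47% of sites with 2 control tags and 6.17% of those with 0 or 1. Without the block the first of these was 6.85% (2.26 to 15.3). The intervals of the 3 classes overlap at each distance, with and without the block.

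In longer groups of sites the share was lower without the block. Among sites in runs of 10 or more, 25 of 195 had 3 or more control tags (12.8%, interval 8.47 to 18.3), and without the block 13 of 182 (7.14%, 3.86 to 11.9). In runs of 5 to 9 the share was 5.80%, or 5.52% without the block, and in pairs it was 5.24%. At sites more than 10 kb from any other, 380 of 7921 had 3 or more (interval 4.34% to 5.29%). Without the block, runs of 10 or more still had the highest share of these groups. It rests on 13 sites, and its interval takes in the shares of the others. Of sites with more than 50 tags 5.31% had 3 or more control tags. The share was 4.64% on chromosomes 12 and 18, 5.52% on chromosome 7 and 5.70% on chromosomes 11 and 19, and 4.88% on the last pair without the block.

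Sites with 3 or more control tags, like those with 2, were more often narrow than those with 0 or 1. Their median width was 60 bp, as in the other classes, but the upper quartile was 80 bp, against 100 bp at sites with 2 control tags and 140 bp at those with 0 or 1. At most 60 bp were 68.4% of them (interval 65.3 to 71.4), 65.3% of sites with 2 control tags (63.3 to 67.2) and 54.4% of those with 0 or 1 (53.5 to 55.2). The control tags of wide sites are less sure. At 709 sites no whole number came out, all of them 80 bp or wider, and in 695 of these (98.0%) the fold equalled that of a smaller number of tags than the deposited one over 1 or 2 control tags, so that tags and fold did not belong to the same count. Among the 930, 294 sites were wider than 60 bp and may be affected in the same way. The widths by class rest on these control tags, and whether their difference comes from the counting was not tested. The 636 others had the same median of 12 tags and the same median fold of 4.2. At sites in the block on chromosome 11 the median width was 130 bp.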

How the data were processed

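GFP ChIP-Seq libraries from thyroid glands of Glis3-EGFP and WT mice were compared, 1 of each. Per the file headers and the submitters' processing notes, the authors mapped reads to mm9 with Bowtie, of unstated version, and SISSRs 1.4 made the site calls (P-value 0.05, E-value 10, window 20 bp, fragment length 204 bp, 1 tag per position). The deposited count is the number of Glis3-EGFP tags per site, of 4516562 selected from 5336607. The deposited fold is a ratio to the control tags, of 5171171 in the control file. The deposited p-value is the caller's. This call differs from that in the paper's Methods, which used mm10, HOMER and input.

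Control tags were computed as tags / fold / (4516562/5171171), and a value within 2% of a whole number was kept. Gaps were measured between site edges. Sites described are the 10 with the most control tags, extended to the 14 with 6 or more after their values were seen, the 10 with the most Glis3-EGFP tags, the 2 runs of such sites longer than a pair with gaps of at most 10 kb, the 4 pairs first by summed control tags, and those on the Y or mitochondrial chromosome. The members and lists were chosen with earlier results of these data known. Intervals are exact 95% Poisson or Clopper-Pearson intervals. Groups were compared without a significance test. On 20 simulated lists of 18513 sites, the control tags came back at 100% of sites. The simulated folds were made by the same formula from the same tags, so this checks the arithmetic only. It cannot show whether tags and fold belong to the same count at the real sites. No mm9 genome or annotation was used here, so no gene or sequence is given. The input and RNA libraries were not analysed here. Values were computed in Python 3.11.15 with pandas 2.3.3 and NumPy 2.4.6, intervals with SciPy 1.17.1 and figures with Matplotlib 3.10.9.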

Additional observations from a re-analysis of the deposited data

How the results depend on the processing

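The alternatives for sites of at most 60 bp and without the block on chromosome 11 were chosen after seeing the data. With an absolute tolerance of 0.05 tags, 928 sites had 3 or more control tags and no value moved beyond its interval. The sites lost were the site of chromosome 17 with 19 control tags, the highest count of the list, and the Y site. With no tolerance there were 971, and runs of 3 or more such sites went from 2 to 4.

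A minimum of 4 control tags left 222 sites, with a median fold of 3.15, 33.3% at a fold of at least 4, 38.3% with a listed site within 1 kb and 64.0% within 10 kb, 7.66% within 1 Mb of the chromosome's first site, and 1 run. A minimum of 5 left 61 sites, with a median of 13 tags and a median fold of 2.48, 21.3% at a fold of at least 4, 50.8% with a listed site within 1 kb and 77.0% within 10 kb, 21.3% with another such site within 10 kb, 21.3% within 1 Mb of the first site, and 1 run. At both limits most of the sites within 1 Mb of the first site lay in the block on chromosome 11, as did the run. The Y site, which is its own first site, was counted at both limits too. The shares at these limits were not computed without the block.

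At a p-value of at most 0.01, 5.57% had another such site within 10 kb, 2.06% lay within 1 Mb of the first site, 62.7% had a fold of at least 4, and 1 run was left. At 0.001, 113 sites were left, since the p-value follows the fold, with a median of 39 tags, a median fold of 14.03, a median width of 40 bp, 38.1% with a listed site within 1 kb, 71.7% within 10 kb, 5.31% with another such site within 10 kb, 0 within 1 Mb of the first site, 0 runs, and 100% at a fold of at least 4.

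With the whole list cut to sites at most 60 bp wide, the median width was 40 bp, 20.1% had a listed site within 1 kb, 45.4% within 10 kb, 5.97% another such site within 10 kb, and 1 run was left. Without the block on chromosome 11, 6.36% had another such site within 10 kb, 1.54% lay within 1 Mb of the first site, and 0 runs were left. With gaps up to 50 kb there were 7 runs and 14.8% had another such site. After all sites were widened to 300 bp and joined at gaps up to 50 bp, 22.9% had a neighbour within 1 kb. Within 5 Mb of the first site lay 6.02%. Fewer sites were counted by construction in each of these, apart from the wider distances.

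With 1 library per group, no difference between animals can be given, and a count of 3 control tags has a 95% Poisson interval of 0.619 to 8.77, which reaches to both sides of the limit. No paired analysis was possible because the groups compared have 1 library each, and the RNA libraries that share replicate numbers were not analysed here.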
